A study of Homo sapiens with 4 samples.

Results

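The imprinted genes described here are 34 protein-coding genes that are known in human or mouse to be transcribed mainly from the copy inherited from 1 parent, and they were taken by symbol from the 19901 genes of a TT-Seq count table. All 34 were found, and the 21 that reached 50 counts in every library were tested. In TT-Seq, cells take up 4-thiouridine (4sU) for a few minutes and the transcripts that contain it are purified, so the counts follow transcription and not the RNA already present in the cell. The cells were HCT116, a colon cancer line, of 1 clone (D5) with the genotype KAP1_dTAG, in which the KAP1 protein carries a tag that lets the compound dTAG direct it to degradation. Both groups carried the tag: 2 libraries came from cells given DMSO, the vehicle, for 8 h and 2 from cells given dTAG for 8 h, and all were labeled with 500 μM 4sU for 10 min. No wild-type or second clone was compared.

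In genomic imprinting, DNA methylation that is set in egg or sperm marks 1 parental copy of a control region, and the mark decides which copy of the genes around it is transcribed. KAP1, encoded by TRIM28, is recruited to these control regions by KRAB zinc finger proteins, of which ZFP57 and ZNF445 are the best known, and it brings the histone methyltransferase SETDB1 and the DNA methylation machinery that keep the mark through cell division. ZFP57 reads the hexamer TGCCGC when its CpG is methylated. The comparison therefore asks whether transcription of imprinted genes differed after 8 h of KAP1 degradation. The counts sum both parental copies, so transcription from a silenced copy and a change in the active copy cannot be told apart. In cultured cells measured in bulk, fewer transcribing cells and less RNA per cell cannot be told apart either.

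Gene counts per library ran from 93105627 to 102314741, and the imprinted genes took 0.184% to 0.198% of them. The epithelial markers EPCAM, CDH1, KRT8, KRT18, KRT19 and CDX2 stood between 21.4 and 434 CPM (counts scaled to the TMM-normalized library size) in the DMSO libraries, while VIL1 had 15, 9, 10 and 1 counts. Of the markers of other cell types, COL1A2 was at 0 in every library, PTPRC had 1 count in all, ALB had 29, CGA 2 and PECAM1 136. COL1A1, unlike COL1A2, was transcribed, with 538, 526, 520 and 420 counts (DMSO, then dTAG), and was not called. GFAP had 0 counts with DMSO and 5 and 13 with dTAG. The neuronal marker RBFOX3 had a mean of 1.37 CPM with DMSO and 0.839 CPM with dTAG and was not called (adjusted p = 0.12). The part of these markers in the results was not tested. Reads that fall in genes overlapping on the same strand were not counted: 97.1% of genes lying wholly inside same-strand genes had 0 counts in every library, against 11.8% of genes that overlap no other. Genes lying wholly inside opposite-strand genes were at 0 in 19.3% of cases, so the strand of the reads was used. TRIM28 RNA is no check of the libraries' labels, because dTAG acts on the protein.

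Between the groups, 4 imprinted genes differed at an adjusted p under 0.05. CDKN1C and PEG10 fell, and GRB10 and PLAGL1 rose. They are 19.0% of the 21 tested imprinted genes, where 7.1% of all 12612 tested genes were called, 3.44% higher and 3.66% lower. Without dTAG replicate 1, log2 fold changes were -1.24 for CDKN1C, -0.57 for PEG10, 0.48 for GRB10 and 0.29 for PLAGL1. Without dTAG replicate 2, they were -0.75, -0.78, 0.36 and 0.29 in the same order. Each of these fits takes the spread between libraries from the 2 DMSO libraries alone. The number of calls in them therefore depends on that spread as well. Over all genes, those same fits called 138 and 69 in place of 895. Without DMSO replicate 1, log2 fold changes were -1.14 for CDKN1C, -0.60 for PEG10, 0.44 for GRB10 and 0.33 for PLAGL1. Without DMSO replicate 2, they were -0.78, -0.745, 0.40 and 0.25 in that order. Where the ERCC spike-in totals served as library sizes, the count was 0, both for the imprinted genes and for all genes, with 229 of all genes at an unadjusted p under 0.05. Those totals were 14798 and 25165 with DMSO and 13870 and 9551 with dTAG, so they differed within the groups as well. The part of that spread in the count of 0 was not tested. The other 17 tested imprinted genes did not pass the threshold. The median log2 fold change of the 21 was -0.014, beside -0.015 for all tested genes, and 13 of the 21 lay within 0.2 of 0.

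**Figure D1:**
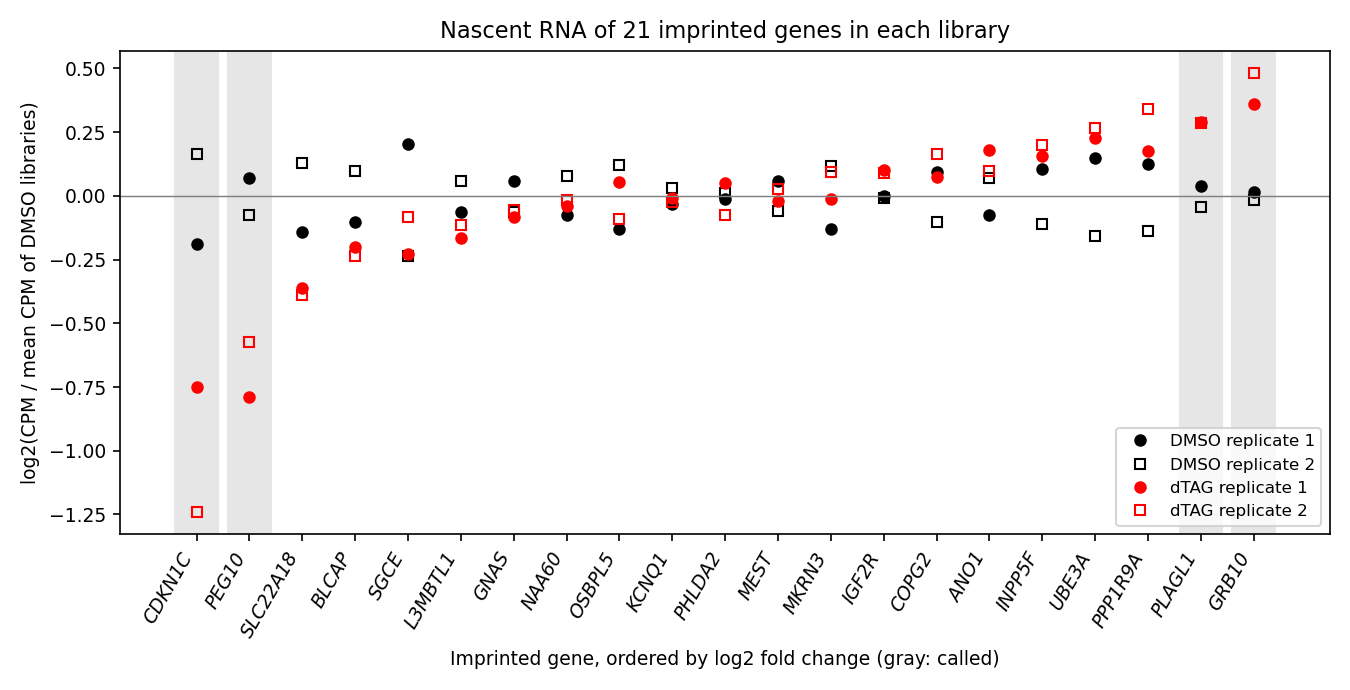
Each of the 21 tested imprinted genes (x axis, ordered by log2 fold change) is plotted in each library as log2 of its CPM over the mean CPM of the 2 DMSO libraries (y axis). Circles are replicate 1 and squares replicate 2, DMSO in black and dTAG in red, and gray bands mark the 4 called genes. Most genes sit close to 0 in all libraries, and CDKN1C and PEG10 at the left lie furthest below it.

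Promoters of the 2 called genes with a sequence are shown for the letters that ZFP57 reads. RefSeq promoter sequences (GRCh38.p14, read on the strand of the gene) were found for 24 of the 34 genes, in 52 windows of 300 bases, and those not matched were KCNQ1, PEG3, DLK1, PEG10, SLC22A18, IGF2, CDKN1C, SGCE, NNAT and PHLDA2. TGCCGC, searched on both strands, occurred in 19 of the 52 windows (36.5%) and in 13 of the 24 genes, beside 16.7% of 35116 promoters of the same length. The 52 windows are not all distinct. SNRPN and SNURF share a window that holds the hexamer, and windows of MEST and of BLCAP that hold it overlap each other. No share per gene was computed over all promoters. The imprinted windows held a median of 21 CpG dinucleotides, beside 14 over all promoters, and the part of CpG content in that share was not tested. PLAGL1 has an upstream promoter and, inside the gene, the promoter that is methylated on the maternal copy, and its windows differ in the hexamer. Of the 10 windows of PLAGL1 and GRB10, 2 held it. The first window below holds the hexamer 99 and 91 bases before the start, once on each strand, with 32 CpG in the 250 bases upstream. The second, at the upstream start, holds none, with 21 CpG. The GRB10 window shown, the most upstream of that gene, holds it once, 67 bases before the start, with 37 CpG. The other GRB10 windows hold none, among them chr7:50792875-50793124 with 40 CpG and chr7:50782897-50783146 with 19 CpG. Which of the GRB10 windows is methylated on a parental copy was not tested. Capitals mark TGCCGC or its reverse complement GCGGCA.
PLAGL1 (chr6:144008260-144008509, minus strand): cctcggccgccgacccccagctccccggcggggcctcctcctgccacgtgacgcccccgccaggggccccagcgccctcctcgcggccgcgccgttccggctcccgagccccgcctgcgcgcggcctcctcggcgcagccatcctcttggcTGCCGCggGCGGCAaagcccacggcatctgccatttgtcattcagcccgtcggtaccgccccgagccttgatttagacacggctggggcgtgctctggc
PLAGL1 (chr6:144064600-144064849, minus strand): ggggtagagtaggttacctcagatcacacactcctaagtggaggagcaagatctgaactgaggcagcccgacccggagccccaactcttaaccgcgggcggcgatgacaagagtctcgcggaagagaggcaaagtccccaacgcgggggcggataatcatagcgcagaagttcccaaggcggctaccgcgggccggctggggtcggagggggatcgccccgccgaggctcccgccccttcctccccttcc
GRB10 (chr7:50793454-50793703, minus strand): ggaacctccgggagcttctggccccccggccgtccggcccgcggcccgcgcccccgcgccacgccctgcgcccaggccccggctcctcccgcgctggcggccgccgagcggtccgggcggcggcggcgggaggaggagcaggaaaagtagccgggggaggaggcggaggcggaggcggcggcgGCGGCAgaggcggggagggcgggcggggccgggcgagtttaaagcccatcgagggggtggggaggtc
A match describes these letters and is not evidence of binding.

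CDKN1C encodes p57KIP2, an inhibitor of cyclin-dependent kinases that slows growth, and it is transcribed from the maternal copy. The gene (ENSG00000129757.13, chromosome 11 from 2883212 to 2885773 of hg38, minus strand, 2.56 kb) had 114 and 147 counts with DMSO and 78 and 50 with dTAG. Both dTAG libraries lay below both DMSO libraries, and the lowest stood exactly at the minimum for testing. CPM fell from 1.31 ± 0.228 (SD, n = 2) to 0.667 ± 0.159 (SD, n = 2), 0.51 of the DMSO level. Its log2 fold change was -0.97 (SE 0.28, adjusted p = 0.039). This was the largest change among the tested imprinted genes and had the fewest counts behind it. CDKN1C kept its sign in the 12 alternatives that gave an adjusted p and passed in 4 of them, and over the 12 the adjusted p ran from 3.5e-04 to 0.87. DESeq2 gave it no adjusted p. Without dTAG replicate 1 its log2 fold change was -1.24 (adjusted p = 0.14), without dTAG replicate 2 -0.75 (0.87), and without DMSO replicate 2 -0.78 (0.059).

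GRB10 encodes an adaptor that binds the insulin and IGF1 receptors and dampens their signaling. It is transcribed from both copies in most tissues, from the maternal copy in placental trophoblast and from the paternal copy in neurons. The gene (ENSG00000106070.18, chromosome 7 from 50590062 to 50793462, minus strand, 203 kb) had 18658 and 18371 counts with DMSO and 23896 and 23453 with dTAG. The replicates of each group lay close together and the groups did not overlap. CPM rose from 186 ± 3.00 (SD, n = 2) to 249 ± 15.1 (SD, n = 2), 1.34 times the DMSO level. The log2 fold change was 0.42 (SE 0.089, adjusted p = 0.0072), which had the lowest adjusted p of the imprinted genes. GRB10 passed in 9 of 13 alternatives, with adjusted p from 1.1e-07 to 0.78, and its log2 fold change was 0.48 without dTAG replicate 1 (adjusted p = 0.21) and 0.36 without dTAG replicate 2 (adjusted p = 0.78).

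PLAGL1, also called ZAC1, encodes a zinc finger transcription factor that halts the cell cycle and is expressed from the paternal copy, and its overexpression is a cause of transient neonatal diabetes. The gene (ENSG00000118495.18, chromosome 6 from 143940299 to 144064599, minus strand, 124 kb) had 5097 and 4853 counts with DMSO and 6137 and 5501 with dTAG. Both dTAG libraries were higher than both DMSO libraries. CPM rose from 50.1 ± 1.99 (SD, n = 2) to 61.1 ± 0.224 (SD, n = 2), 1.22 times the DMSO level. The log2 fold change of 0.29 (SE 0.086, adjusted p = 0.048) lay just inside the threshold. It passed in 6 of 13 alternatives, with adjusted p from 2.0e-04 to 0.88. The value was 0.29 both without dTAG replicate 1 (adjusted p = 0.49) and without dTAG replicate 2 (adjusted p = 0.88). Since counts cover the whole gene, the 2 PLAGL1 promoters shown above are not separated in them.

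IGF2R encodes the receptor that removes IGF2 from the cell surface and is imprinted in only some people. It had 21933, 21920, 23735 and 21249 counts (DMSO replicates 1 and 2, then dTAG replicates 1 and 2), and its CPM were 221 ± 1.23 (SD, n = 2) and 236 ± 1.07 (SD, n = 2). In CPM both dTAG libraries lay above the DMSO libraries, by 0.099 on the log2 scale (SE 0.087, adjusted p = 0.48). PHLDA2, a small protein that limits placental growth, had 2287, 2343, 2410 and 1990 counts over a gene of 1.18 kb. Per kilobase it was the most transcribed of the imprinted genes, at 19.7 CPM per kb with DMSO, above 98.3% of all tested genes. Its dTAG libraries lay on either side of the DMSO libraries, with a log2 fold change of -0.014 (SE 0.11, adjusted p = 0.94), but it stood at 0.37 (adjusted p = 0.0047) with GC and length trends removed. DIRAS3, a small GTPase that restrains growth, was under the minimum, with 31 and 40 counts with DMSO and 56 and 45 with dTAG. When genes with at least 10 counts were tested, its log2 fold change was 0.57 (SE 0.36, adjusted p = 0.32). DLK1, a transmembrane relative of the Notch ligands, had 0, 2, 0 and 2 counts.

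**Figure D2:**
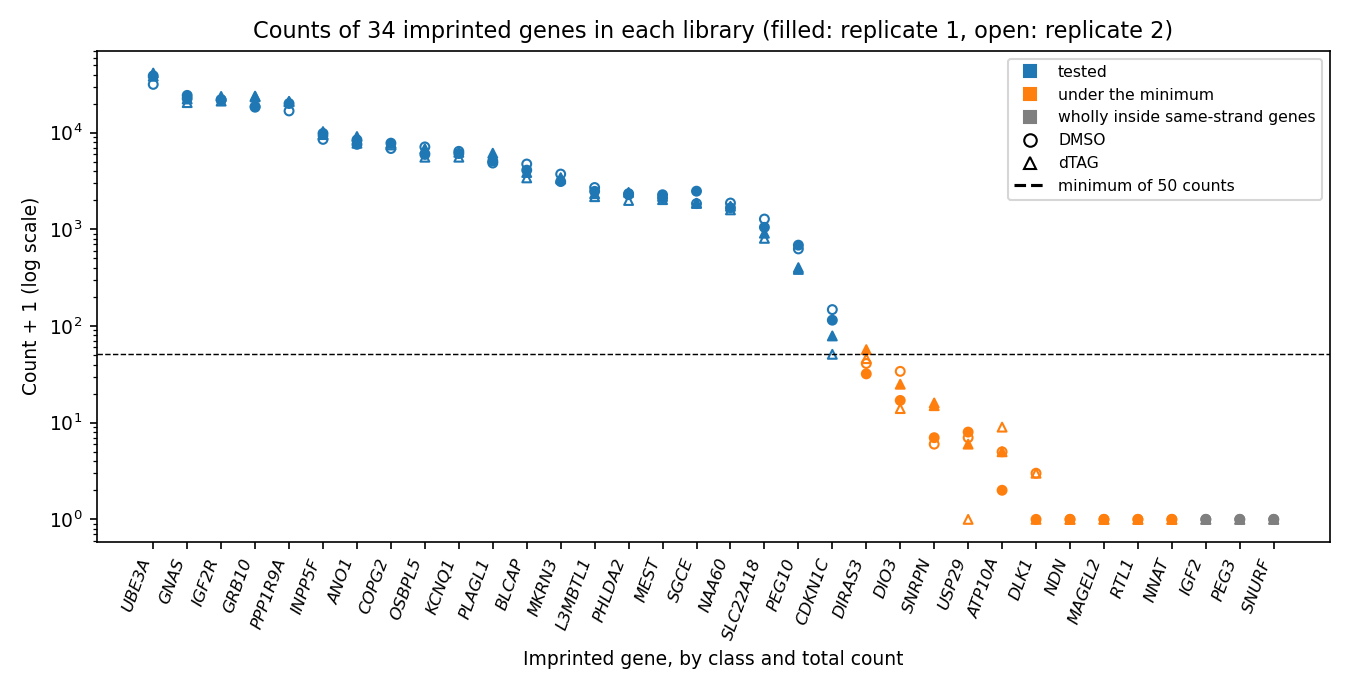
Counts plus 1 of all 34 imprinted genes (log axis) are plotted in each library, with circles for DMSO, triangles for dTAG, filled for replicate 1 and open for replicate 2, and a dashed line at the minimum of 50 counts. Blue genes were tested, orange genes fell under the minimum and gray genes lie wholly inside same-strand genes. CDKN1C touches the line from above in dTAG replicate 2, and 7 genes sit at 0 in all libraries.

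PEG10 was the second gene that fell. It derives from a retrotransposon, encodes a Gag-like protein that assembles particles, is needed for the placenta and is expressed from the paternal copy. The gene (ENSG00000242265.5, chromosome 7 from 94656324 to 94669695, plus strand, 13.4 kb) had 686 and 627 counts with DMSO and 384 and 401 with dTAG. All 4 libraries fell into their groups with no overlap. CPM fell from 6.61 ± 0.454 (SD, n = 2) to 4.14 ± 0.431 (SD, n = 2), 0.626 of the DMSO level. The log2 fold change was -0.675 (SE 0.17, adjusted p = 0.019). PEG10 passed in 10 of 13 alternatives, the most of the 4 genes, with adjusted p from 4.2e-04 to 0.95. It was -0.57 without dTAG replicate 1 (adjusted p = 0.35) and -0.78 without dTAG replicate 2 (adjusted p = 0.26). Scaling by the ERCC totals, under which the median over all genes was 0.63, left PEG10 at -0.032 (adjusted p = 0.95) and CDKN1C at -0.31. PEG10 overlaps SGCE on the opposite strand by 249 bases, which is 1.86% of PEG10.

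The other genes of the PEG10 cluster at chromosome 7q21 gave no call. SGCE encodes epsilon-sarcoglycan, a membrane protein mutated in myoclonus dystonia, and shares the control region with PEG10. It had 2484, 1847, 1864 and 1857 counts, so that DMSO replicate 1 stood above the other 3 libraries and the groups overlapped. Its log2 fold change was -0.15 (SE 0.13, adjusted p = 0.46). PPP1R9A, which encodes neurabin, an actin-binding scaffold of protein phosphatase, had 20053, 16805, 20895 and 21111 counts and gave 0.26 (SE 0.099, adjusted p = 0.11). CASD1, next to SGCE, stood at 0.40 (SE 0.15, adjusted p = 0.095). PON3 and PON2, on the far side of PPP1R9A, gave -0.34 and -0.017, neither called. The difference between PEG10 and these neighbors was not tested.

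The CDKN1C cluster at chromosome 11p15 had 5 tested members of 6 listed, all with a log2 fold change below 0 and a median of -0.018, and 1 was called. KCNQ1, a potassium channel whose intron holds the cluster's control region, lies 34.1 kb from CDKN1C. It had 6086, 6419, 6260 and 5581 counts and a log2 fold change of -0.016 (SE 0.084, adjusted p = 0.91). SLC22A18, an organic cation transporter 13.9 kb on the other side of CDKN1C, had 1050 and 1279 counts with DMSO and 912 and 807 with dTAG. Its groups did not overlap, at 11.7 ± 1.57 and 9.03 ± 0.115 CPM (SD, n = 2 each), and its log2 fold change was -0.376 (SE 0.14, adjusted p = 0.096). SLC22A18AS, on the opposite strand over 15.8% of SLC22A18, gave -0.50 (SE 0.28, adjusted p = 0.26). PHLDA2, 3.0 kb further on, and OSBPL5, an oxysterol-binding protein relative 157.7 kb beyond it, gave -0.014 and -0.018. OSBPL5 had 5960, 7134, 6835 and 5579 counts, with both groups spread over the same range. CARS1, the cysteinyl-tRNA synthetase gene between PHLDA2 and OSBPL5, rose from 142 ± 13.0 to 194 ± 14.1 CPM (SD, n = 2 each), by 0.45 on the log2 scale (SE 0.092, adjusted p = 0.0059). The signs of KCNQ1, PHLDA2 and OSBPL5 turned under several settings. With GC and length trends removed they stood at 0.097, 0.37 and 0.15.

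**Figure D3:**
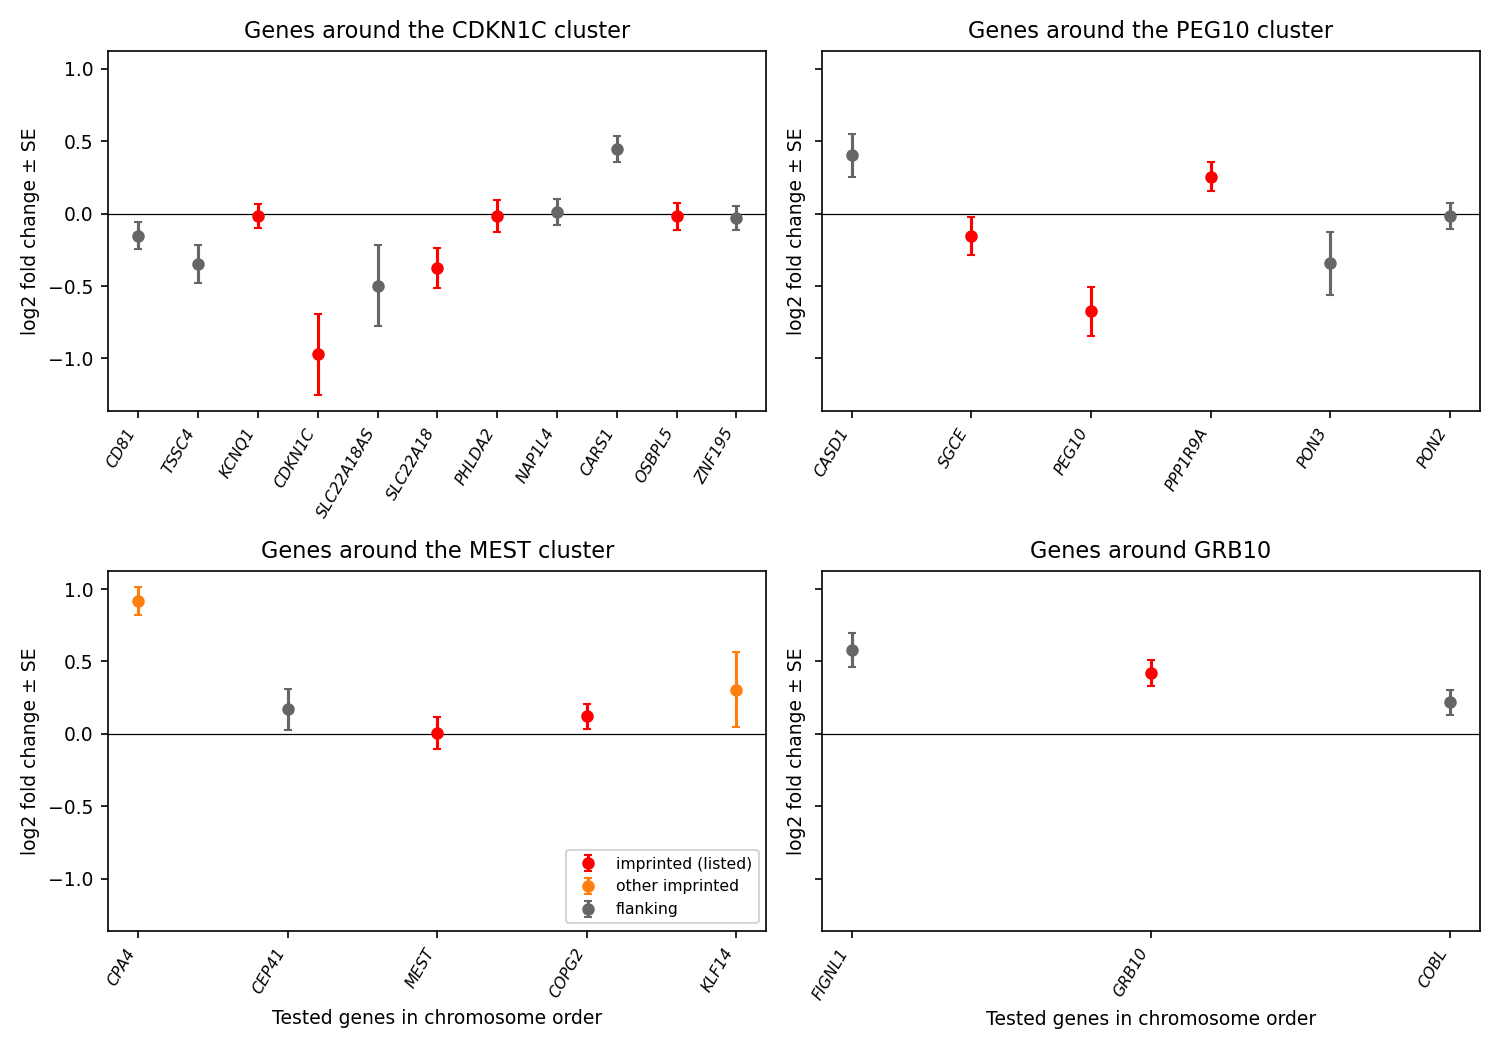
Log2 fold changes with SE bars (y axis) of the tested genes in and around 3 imprinted clusters and GRB10, in chromosome order (x axis, not to scale). Red marks the listed imprinted genes, orange other imprinted genes and gray flanking genes. CDKN1C and PEG10 lie below their neighbors, and CPA4, CARS1 and FIGNL1 lie above 0.

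The listed members of the MEST cluster at chromosome 7q32 gave no call. MEST, a hydrolase-fold protein expressed from the paternal copy, had 2282, 2113, 2188 and 2030 counts and a log2 fold change of 0.004 (SE 0.11, adjusted p = 0.98). COPG2, a coat protein subunit whose imprinting is disputed, had 7799, 6863, 7777 and 7466 counts and gave 0.12 (SE 0.088, adjusted p = 0.39). Both groups overlapped for each gene. CPA4, a carboxypeptidase gene 162.0 kb from MEST that is imprinted in some fetal tissues, was not among the 34 but was in a list of other imprinted genes. It had 2863 and 2727 counts with DMSO and 5533 and 4605 with dTAG. CPM rose from 28.1 ± 1.11 (SD, n = 2) to 53.1 ± 2.98 (SD, n = 2), 1.89 times the DMSO level, with a log2 fold change of 0.92 (SE 0.094, adjusted p = 6.2e-06). CPA4 passed in 12 of 13 alternatives, including each fit without 1 library, where its value ran from 0.86 to 0.97. It did not pass with ERCC totals as library sizes (1.55, adjusted p = 0.47).

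The region of chromosome 15q11 to 15q13 that is lost in Prader-Willi and Angelman syndromes divided into transcribed and silent genes. UBE3A, the ubiquitin ligase that is imprinted in neurons and transcribed from both copies elsewhere, was the imprinted gene with the most counts, 38783 and 31637 with DMSO and 41429 and 38451 with dTAG. Its level was 3.36 CPM per kb, above 84.3% of tested genes. CPM were 354 ± 52.7 and 420 ± 8.80 (SD, n = 2 each), the groups did not overlap, and the log2 fold change was 0.245 (SE 0.10, adjusted p = 0.14). MKRN3, a RING finger protein that delays puberty, had 3124, 3735, 3426 and 3319 counts and gave 0.041 (SE 0.10, adjusted p = 0.82). NDN, a growth suppressor of neurons, and MAGEL2, its relative that acts in endosomal protein recycling, were at 0 in every library. A count of 0 allows up to 3 counts, or 0.03 to 0.0332 CPM in these libraries, and this limit covers counting error only. ATP10A, a lipid flippase, had 1, 4, 4 and 8 counts.

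SNRPN, whose transcript encodes a splicing protein and starts at the control region of 15q11, had 6 and 5 counts with DMSO and 14 and 15 with dTAG. The groups did not overlap, and with no count minimum its log2 fold change was 1.45 (SE 0.98, adjusted p = 0.40). These counts come from the 131 kb of the gene that no same-strand gene shares. That part ends where SNURF begins, at 24954985 on chromosome 15, beside the start at the control region. The counts therefore do not measure the transcript that starts there. SNURF lies wholly inside SNRPN on the same strand, as IGF2, the fetal growth factor, lies inside ENSG00000284779 (2129111 to 2158658 on chromosome 11), and PEG3, a zinc finger gene, inside ZIM2. All 3 were at 0, and because shared reads were not counted, those values do not measure their transcription. NNAT, a brain proteolipid, lies inside BLCAP on the opposite strand only and was at 0 in all libraries. RTL1, a retrotransposon-derived placental gene, was at 0 as well. USP29, a deubiquitinase relative next to PEG3, had 7, 6, 5 and 0 counts. DIO3, the deiodinase that inactivates thyroid hormone, had 16, 33, 24 and 13 counts, and among genes with at least 10 counts gave -0.34 (SE 0.47, adjusted p = 0.68).

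The 5 genes grouped as imprinted in only some transcripts or tissues had a median level of 0.916 CPM per kb with DMSO. That of all tested genes was 1.06, and the group leaves out UBE3A and IGF2R. Levels per kb divide by the whole gene, also where shared stretches were not counted. NAA60 stood at 0.411 CPM per kb, but at 2.40 over the part that no same-strand gene shares. The group median is therefore not shown to lie below that of all genes. GNAS encodes the stimulatory G protein alpha subunit and several imprinted transcripts that start upstream of it. It had 24347 and 22583 counts with DMSO and 22345 and 20483 with dTAG, at 3.30 CPM per kb, above 83.9% of tested genes. Its CPM were 236 ± 13.8 and 225 ± 2.74 (SD, n = 2 each), the groups overlapped, and the log2 fold change was -0.069 (SE 0.090, adjusted p = 0.64). BLCAP, a small protein lost in bladder cancer, had 4100 and 4746 counts with DMSO and 3878 and 3410 with dTAG. Its level was 1.25 CPM per kb, its groups did not overlap, and it gave -0.22 (SE 0.096, adjusted p = 0.15). INPP5F, an inositol phosphatase of endosomes, had 9830, 8533, 10269 and 9564 counts and gave 0.17 (SE 0.088, adjusted p = 0.21).

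NAA60, a Golgi acetyltransferase, had 1670, 1873, 1733 and 1591 counts and gave -0.029 (SE 0.12, adjusted p = 0.89). Another gene shares 82.9% of NAA60 on its strand, so that these counts come from 7.41 kb. L3MBTL1, a chromatin compaction protein expressed from the paternal copy, had 2476, 2711, 2336 and 2178 counts, 24.9% of its length being shared, and gave -0.14 (SE 0.10, adjusted p = 0.41). ANO1, a calcium-activated chloride channel, had 7580, 8430, 9129 and 7781 counts and gave 0.14 (SE 0.085, adjusted p = 0.30). In CPM both dTAG libraries of ANO1 lay above the DMSO libraries.

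The genes can also be grouped by the copy that is expressed where they are imprinted. Of 18 paternally expressed genes 6 were tested. Their median was -0.066 on the log2 scale, and PEG10 fell while PLAGL1 rose. Of 10 genes listed as maternally expressed 9 were tested, with a median of -0.014, and CDKN1C was the 1 called. Among the 10 are UBE3A, imprinted in neurons, and IGF2R, imprinted in only some people. The 5 genes grouped as having an imprint that depends on the transcript or tissue all passed the minimum. They had a median of -0.029, and GRB10 was the 1 called. COPG2 was put in none of these groups. The libraries of the 2 conditions did not overlap for 12 of the 21 genes, 7 with dTAG above and 5 with dTAG below, where 58.8% of all tested genes did not overlap. The median level of the 21 was 0.603 CPM per kb with DMSO, beside 1.06 for all tested genes. Both divide by whole gene lengths, shared stretches included. The 0.603 is the value of L3MBTL1, which stood at 0.803 over its unshared part.

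The direction of change followed gene length among the imprinted genes, as it did among all genes. The Spearman correlation of log2 fold change with length was 0.64 over the 21 genes and 0.42 over all tested genes, and with GC content -0.48 and -0.56. These are descriptions across genes measured in the same 4 libraries, which makes genes no independent replicates of each other. Of the 10 imprinted genes over 100 kb, 8 had a log2 fold change above 0, with a median of 0.16 beside 0.090 for the 2660 tested genes of that length. Of the 11 shorter ones, 2 were above 0, with a median of -0.069 beside -0.048 for shorter genes. Both genes that fell, CDKN1C and PEG10, are short, and both that rose, GRB10 and PLAGL1, are long. With the length trend removed, PEG10 (-0.56, adjusted p = 0.032) and GRB10 (0.33, adjusted p = 0.0064) stayed called, while CDKN1C (-0.73, adjusted p = 0.088) and PLAGL1 (0.20, adjusted p = 0.11) did not pass. With GC and length trends removed, 6 imprinted genes were called, and calls over all 12612 tested genes rose as well, from 895 to 2285. GRB10, PEG10 and PLAGL1 were among them and CDKN1C was not (-0.59, adjusted p = 0.10). The other 3 were PHLDA2, whose sign turned (0.37, adjusted p = 0.0047), ANO1 (0.265, adjusted p = 0.0012) and SGCE (-0.35, adjusted p = 0.0069). ANO1 (0.23, adjusted p = 0.038) and SGCE (-0.56, adjusted p = 0.0020) were called with the ERCC factor as well. So was GNAS (-0.21, adjusted p = 0.02), beside PEG10 and GRB10. That fit called 1152 of all genes.

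**Figure D4:**
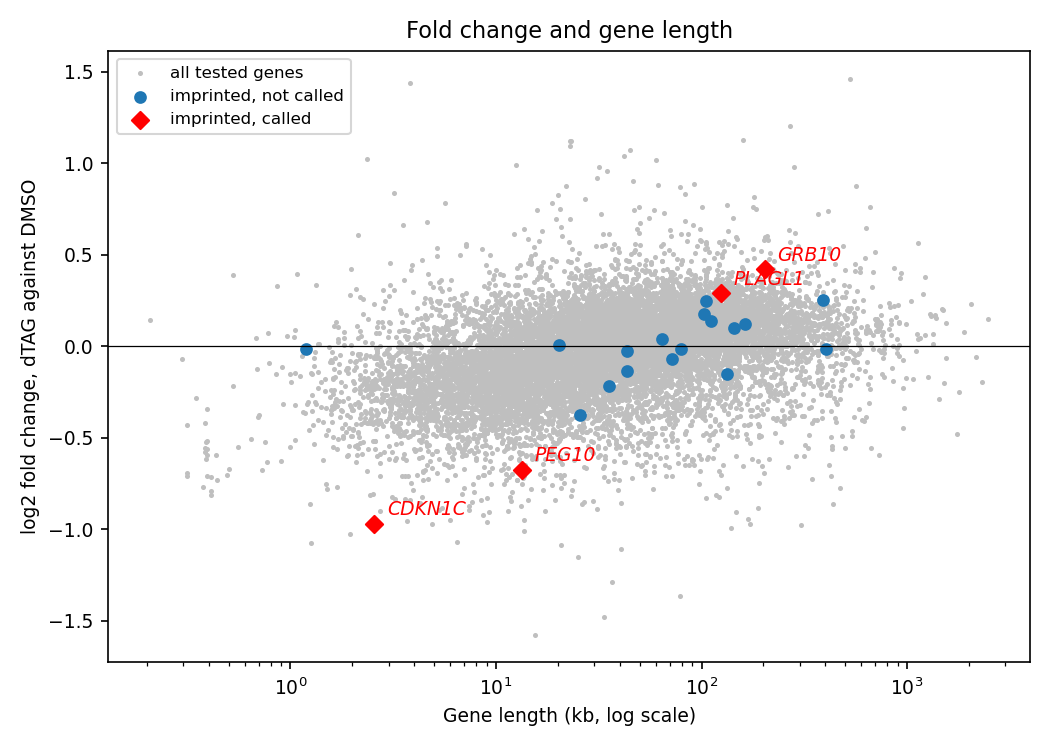
Log2 fold change (y axis) is plotted against gene length in kb (x axis, log scale) for all 12612 tested genes in gray, imprinted genes that were not called in blue and the 4 called ones as red diamonds. The short CDKN1C and PEG10 lie below 0, toward the lower edge of the gray points of their length, and the long PLAGL1 and GRB10 lie above 0.

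Genes whose proteins set, keep, read or erase imprints showed 1 call among 15 tested of 22 listed, or 6.67%, and a median log2 fold change of 0.04. The call was TRIM28 itself, with 6107 and 6959 counts with DMSO and 5357 and 4321 with dTAG. Its CPM fell from 65.7 ± 5.72 (SD, n = 2) to 50.7 ± 3.96 (SD, n = 2), and its log2 fold change of -0.374 (SE 0.092, adjusted p = 0.019) lost its call without dTAG replicate 1 (-0.45, adjusted p = 0.18) and without dTAG replicate 2 (-0.30, adjusted p = 0.88). TRIM28 was not called either with the length trend removed (-0.197, adjusted p = 0.12), with GC and length trends removed (-0.103, adjusted p = 0.17) or with the ERCC factor (-0.23, adjusted p = 0.062). ZFP57 was all but silent, with 7 and 1 counts with DMSO and 0 in both dTAG libraries. ZNF445 was transcribed, with 6407, 6298, 6281 and 5828 counts and a log2 fold change of -0.006 (SE 0.084, adjusted p = 0.97). The maintenance methyltransferase DNMT1 and its partner UHRF1 gave 0.026 and 0.073, and SETDB1 gave 0.045, none of them called. SMCHD1, a chromosomal protein that silences some imprinted clusters, gave 0.31 (SE 0.10, adjusted p = 0.065).

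Genes imprinted in other tissues and genes lying near the imprinted genes were counted beside the 7.1% called over all tested genes. Of 22 other imprinted genes 11 were tested and 1, CPA4, was called, or 9.09%. Of 121 genes within 250 kb of the 34 and in neither imprinted list, 73 were tested and 3 were called, or 4.11%. Other imprinted genes within that distance were left out of the 121, among them CPA4, which was called, and KLF14 and ZNF597, which were not. The 73 had a median of 0.012 on the log2 scale. FIGNL1, an ATPase of recombination that lies near GRB10, rose from 16.8 ± 1.43 to 25.2 ± 2.51 CPM (SD, n = 2 each), by 0.58 on the log2 scale (SE 0.12, adjusted p = 0.0046). DDC shares 85.5% of FIGNL1 on its strand, so that the FIGNL1 counts come from 14.3 kb. COBL, on the other side of GRB10, gave 0.22 (SE 0.087, adjusted p = 0.12). BAG3, a cochaperone near INPP5F, fell from 164 ± 4.57 to 127 ± 16.0 CPM (SD, n = 2 each), with a log2 fold change of -0.37 (SE 0.093, adjusted p = 0.021), while INPP5F gave 0.17. CARS1 was the third, described with the CDKN1C cluster. None of the 3 was called without dTAG replicate 2, and 1 of the 73 was called without dTAG replicate 1.

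**Figure D5:**
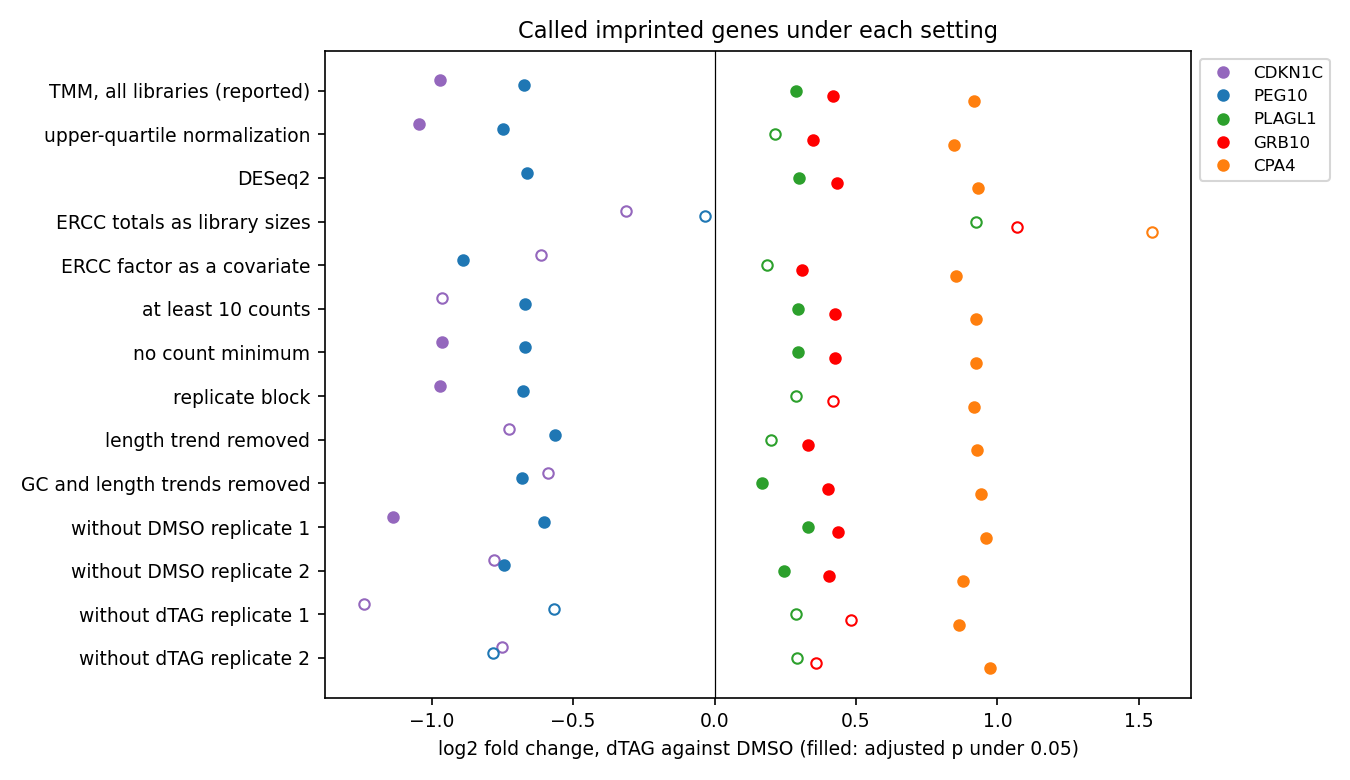
Log2 fold change (x axis) of the 4 called imprinted genes and CPA4 under each setting (y axis), filled where the adjusted p was under 0.05. The 5 genes keep their side of 0 in every setting shown, and without either dTAG library CPA4 alone is filled.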

How the data were processed

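Nascent RNA was measured by TT-Seq in 4 libraries, 2 per group, grouped by their titles. The authors deposited unnormalized read counts for 19901 protein-coding genes, each counted from end to end, and for 92 ERCC spike-ins, made with FastQC 0.11.8, Trim Galore 0.6.4, alignment with STAR to hg38 and featureCounts (Subread 1.6.3). No column of another sample was present (0), and no comparison columns were used. The strand and overlap settings of the counting are not given in the sources used here and were read from the counts of overlapping genes.

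Counts were scaled by TMM and tested with the quasi-likelihood F test of edgeR 4.0.16 (R 4.3.3), two-sided, dTAG against DMSO, for the 12612 genes that reached 50 counts in each of the 4 libraries, with Benjamini-Hochberg adjustment over all of them and a threshold of 0.05. The authors normalized by spike-ins with RUVSeq, but the function and number of factors are not given in the sources used here, so spike-in settings were alternatives. SE is the absolute log2 fold change over the root of the F statistic. The p-values measure the spread between 2 libraries per group, all from 1 clone. Coordinates are those of the file, whose starts lie 1 base before those of GENCODE 44 for most genes. RefSeq promoters were identical to hg38 where printed.

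Imprinted genes, other lists and tests were chosen with earlier results of these data known. All 34 imprinted genes are named; those given in full are the called genes, the 5 with the largest absolute log2 fold change and the 5 with the highest level per kb. Of the other lists, called genes are given, at most 5 a list, with TRIM28 and ZFP57. Neighbors plotted in chromosome order and the maintenance genes named beside these were chosen after their values were seen. MCTS2, of the other imprinted genes, was not matched.

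Alternatives were upper-quartile normalization, DESeq2 1.42.0, ERCC totals as library sizes, 1 ERCC factor (from 14 spike-ins) as a covariate, at least 10 counts, no minimum, a replicate block, removal of each library's length or GC and length trend (lowess, span 0.3), genes that overlap no other, and fits without each library, in which a lone library is assumed to vary like the others. The fits were also run on simulated counts, which held no length or GC trend and were set beside the real spike-ins. That run therefore cannot check the trend and spike-in settings.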

Additional observations from a re-analysis of the deposited data

How the results depend on the processing

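Of 895 genes called over all 12612, the count was 0 with ERCC totals as library sizes, 1417 with no count minimum, 2285 with GC and length trends removed, and 69 to 5491 without 1 library, the lowest without dTAG replicate 2 and the highest without DMSO replicate 1. Upper-quartile normalization split the calls into 255 higher and 869 lower. Of the 4 imprinted genes called, the count was 0 with ERCC totals, 2 with the length trend removed (PEG10 and GRB10), and 0 to 10 without 1 library. It was 3 with upper-quartile normalization, DESeq2 and at least 10 counts, 5 with the ERCC factor and 6 with GC and length trends removed. Of the 1 maintenance gene called, the count was 2 with DESeq2 and with no count minimum, 5 with the ERCC factor and with GC and length trends removed (TRIM28 not among them in either), 0 with ERCC totals and with the length trend removed, and 0 to 5 without 1 library. Other imprinted genes (1 called) gave 0 with ERCC totals, 2 with GC and length trends removed and 1 to 3 without 1 library. Flanking genes (3 called) gave 0 with ERCC totals, 5 with the ERCC factor, 9 with GC and length trends removed and 0 to 17 without 1 library. Whether the replicate numbers pair the libraries is not stated in the sources used here, and the main fit did not pair them. Deviations of the same-numbered libraries had a correlation of -0.247, which cannot settle it. With the replicate block 340 of all genes, 2 imprinted genes (CDKN1C and PEG10) and 0 maintenance genes were called. With the replicate numbers crossed, a pairing chosen after seeing the data, the counts were 3190 and 8. The median of the imprinted genes, -0.014, was -0.088 with upper-quartile normalization, -0.002 with DESeq2, 0.639 with ERCC totals (all genes 0.633), -0.039 with the ERCC factor, -0.007 with no count minimum, 0.057 with GC and length trends removed, 0.099 over genes that overlap no other and -0.011 to 0.025 without 1 library. Signs turned as follows. With ERCC totals, log2 fold changes were KCNQ1 0.636, PHLDA2 0.626, SLC22A18 0.303, OSBPL5 0.650, SGCE 0.447, GNAS 0.563, BLCAP 0.451, L3MBTL1 0.528, NAA60 0.639, TRIM28 0.283 and BAG3 0.270. With GC and length trends removed they were KCNQ1 0.097, PHLDA2 0.368, OSBPL5 0.147, MKRN3 -0.066 and NAA60 0.057, and with the length trend removed PHLDA2 0.303 and MKRN3 -0.016. With the ERCC factor they were OSBPL5 0.174, PPP1R9A -0.039, MEST -0.145, COPG2 -0.098, UBE3A -0.035, INPP5F -0.043 and NAA60 0.037, and with upper-quartile normalization MEST -0.069 and MKRN3 -0.034. Without 1 library, values ran from -0.049 to 0.016 for KCNQ1, -0.075 to 0.047 for PHLDA2, -0.136 to 0.111 for OSBPL5, -0.358 to 0.082 for SGCE, -0.057 to 0.066 for MEST, -0.077 to 0.169 for MKRN3 and -0.104 to 0.050 for NAA60. The cause was not tested. The 4 called genes kept their signs in the alternatives run for them.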
